A study of Mus musculus with 12 samples.

Results

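Iron uptake, storage and export genes were followed through the spinal cord of male ApoE4 mice after contusion injury. The set holds 10 genes picked by their role in iron handling: FTH1, FTL1, TFRC, TRF, SLC11A2, SLC40A1, CP, HMOX1, ACO1 and IREB2. A gene was taken wherever its symbol was listed, and all 10 were listed at both sites, among 13647 gene tests above the lesion and 12338 below it. The set was assembled with the genotype values of these genes already known, so those values are given as a description and not as a test.

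The libraries came from male mice that express human ApoE4, were 4 months old at surgery, and were sampled 14 days after a motor-incomplete contusion at vertebra T9. The groups were synj1+/+ above the lesion (both synaptojanin 1 alleles normal), synj1+/- above the lesion (1 inactive allele), synj1+/+ below and synj1+/- below, with 3 libraries each, so every group shares the human ApoE4 background and the injury. Segments lay directly rostral (above) or caudal (below) of the epicenter, and as many mice per genotype were listed for sequencing as there are libraries at each site, so both segments probably came from the same mice, although no label pairs them. ApoE3 mice and sham-operated mice were not analysed here, so no value below describes uninjured cord.

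The authors' table gives 1 value for each gene and group of 3 libraries, in FPKM (fragments per kilobase of transcript, scaled to library size) after upper quartile normalization, which puts the values on a scale of its own. There are therefore no values of single libraries, no spread between replicates and no test in what follows. The study reduced the libraries of each site to a common read number, but the reads behind each gene's value are unknown here. A difference was counted when the 2 group values were at least 1.2-fold apart, a description of size and not a call of significance. SYNJ1 itself, the gene with the inactive allele, was higher in the group labelled synj1+/- at both sites, with 2403 FPKM against 1904 above and 2592 against 1846 below. This runs against the labels. The study's RT-qPCR, on segments taken above the lesion, had synj1 mRNA lower in synj1+/- mice, the direction of the labels, and its values were not used here. Every direction is given for the groups as labelled. APOE was 547.5 FPKM in synj1+/- against 766 in synj1+/+ above the lesion and 563 against 476 below it. The mice express human ApoE4 while reads were aligned to the mouse genome, so these values may not give the level of the human transcript.

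Cells take up iron bound to transferrin through the transferrin receptor, keep it in ferritin shells built of heavy and light chains, and release it through ferroportin with the help of a ferroxidase. Iron also arrives from heme, which heme oxygenase opens, and after cord injury bleeding brings both into tissue where microglia, macrophages and astrocytes take them up. The iron regulatory proteins ACO1 and IREB2 bind iron responsive elements when iron is scarce: in the 5′ untranslated region this blocks translation, in the 3′ untranslated region it stabilizes the mRNA.

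These elements are printed because they tie 4 of the genes to the 2 regulators in the set. Each is a hairpin with a 6-base loop, CAGTGN, and a bulged C, and a match was required to have 5 paired bases (Watson-Crick or G with T) between the 2. In GENCODE transcripts of GRCm38, such a match lay in a 5′ untranslated region of 31 of 20916 protein-coding genes (0.148%) and in a 3′ untranslated region of 129 of 21707 (0.594%). Among the 10 genes, 3 had one in the 5′ region and 1 in the 3′ region. A match is a description of sequence, and the absence of one, as in SLC11A2, says only that these letters were not found. Each line gives 30 bases of the sense strand, 5′ to 3′, with the loop in capitals.
FTH1, 5′ region, chr19:9982732-9982761, plus strand: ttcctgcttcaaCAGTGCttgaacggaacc
FTL1, 5′ region, chr7:45459778-45459807, minus strand: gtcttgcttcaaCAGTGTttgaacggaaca
SLC40A1, 5′ region, chr1:45925464-45925493, minus strand: caacttcagctaCAGTGTtagctaagtttg
TFRC, 3′ region, element 1, chr16:32631219-32631248, plus strand: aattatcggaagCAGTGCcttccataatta
TFRC, 3′ region, element 2, chr16:32631598-32631627, plus strand: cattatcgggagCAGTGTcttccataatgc
TFRC, 3′ region, element 3, chr16:32631663-32631692, plus strand: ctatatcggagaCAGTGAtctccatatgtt
TFRC, 3′ region, element 4, chr16:32631710-32631739, plus strand: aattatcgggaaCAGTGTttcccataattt

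The 5 stem bases before the loop were identical in both ferritin chains, TTCAA. SLC40A1 had other stem bases there, and so did each of the 4 elements of TFRC.

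The levels of the 10 genes spanned more than 3 orders of magnitude on the FPKM scale. FTH1 was the most abundant gene listed in synj1+/- above and synj1+/+ below, and the second most abundant in the other two groups. In synj1+/+ above the lesion the order ran FTH1, TRF, FTL1, SLC11A2, TFRC, IREB2, CP, ACO1, HMOX1 and SLC40A1. In synj1+/+ below the lesion FTL1 stood before TRF, CP stood before TFRC and IREB2, and ACO1 moved to the last place. Without a spread between libraries, neighbours in this order cannot be separated, such as ACO1 at 21.5 and HMOX1 at 21.1 FPKM in synj1+/+ above the lesion.

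**Figure D1:**
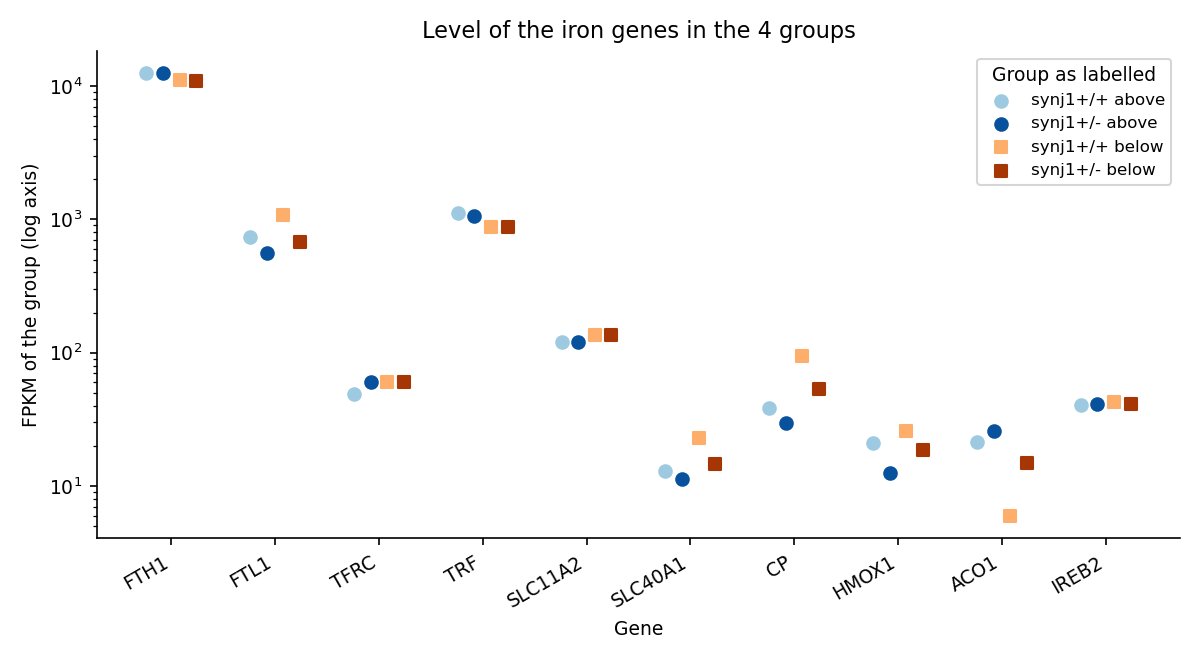
FPKM of each of the 10 iron genes (log axis) in the 4 groups. Each point is the authors' value for a group of 3 libraries, with circles for above and squares for below the lesion. FTH1 lies at 10950 to 12554 in all groups, while ACO1 runs from 5.95 to 25.9.

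Between the genotypes, 3 genes were lower in synj1+/- at both sites by at least 1.2-fold: FTL1, CP and HMOX1. ACO1 was the only one at least 1.2-fold higher at both sites, and above the lesion it lay at the threshold, with a log2 ratio of 0.271 that became 0.2603 on the values as deposited, short of 1.2-fold. Above the lesion, 2 of the 10 genes were at least 1.2-fold higher and 3 lower, where 8.02% of all genes listed were higher and 12.0% lower. Below the lesion, 1 of the 10 was higher and 4 were lower, where 14.0% of all genes listed were higher and 16.4% lower. The median log2 ratio of the 10 genes was -0.034 above and -0.047 below, and that of all genes was -0.0039 above and 0.015 below. At 1.5-fold, HMOX1 was the gene past the threshold above the lesion, where 2.70% of all genes were that much lower and 1.28% that much higher. Below it, FTL1, SLC40A1 and CP were past it in the lower direction and ACO1 in the higher one, where 5.41% of all genes were lower and 2.04% higher. Among genes at 10 FPKM or more in both groups, 2 iron genes were at least 1.2-fold higher and 3 lower above the lesion, beside 5.37% and 8.52% of all such genes. Below the lesion 0 were higher and 4 lower, beside 11.9% and 12.1%.

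**Figure D2:**
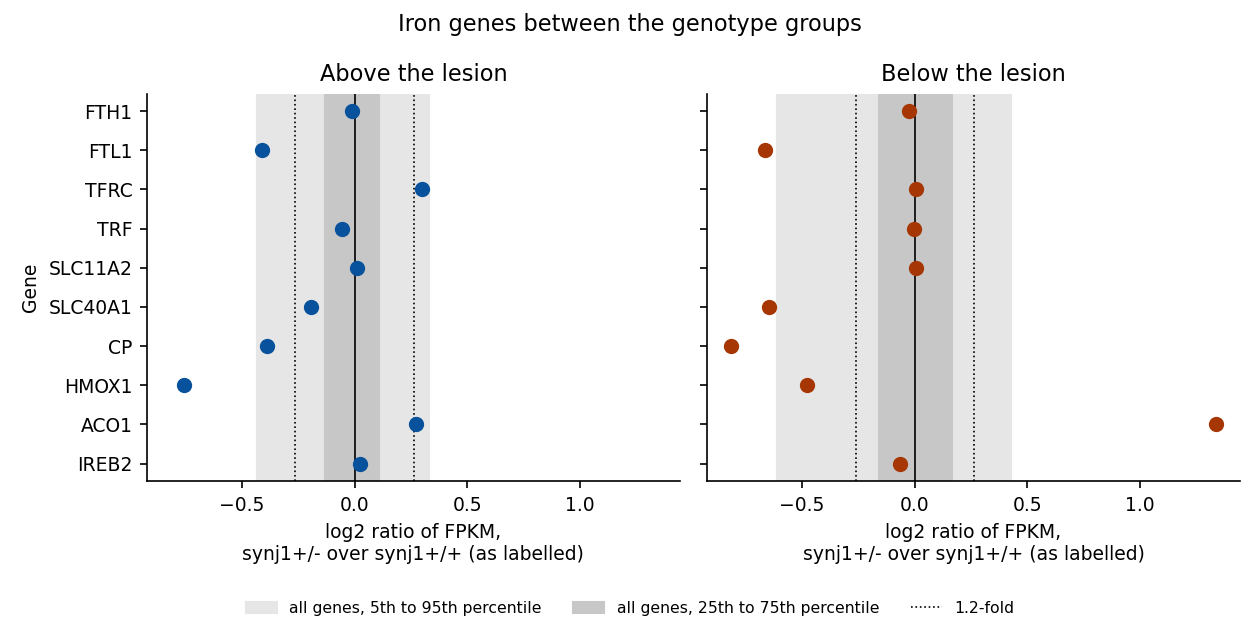
Log2 ratio of FPKM, synj1+/- over synj1+/+, of the 10 iron genes above (left) and below (right) the lesion, with bands for the middle 50% and 90% of all genes listed and dotted lines at 1.2-fold. HMOX1 above (-0.76) and FTL1 (-0.67), SLC40A1 (-0.65), CP (-0.81) and ACO1 (1.33) below lie outside the wider band, and FTH1, TRF, SLC11A2 and IREB2 stay near 0 at both sites.

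Ferritin stores iron in a shell of heavy and light chains. FTH1 (chr19:9980598-9985098, plus strand) encodes the heavy chain, which oxidises ferrous iron as it enters the shell. Its level was 12554 FPKM in synj1+/+ and 12445 in synj1+/- at the upper site, and 11160 and 10950 at the lower site. The log2 ratios were -0.013 and -0.027, both close to 0. FTL1 (chr7:45457944-45459884, minus strand) encodes the light chain, which helps the iron core to form. Its level was 741 FPKM in synj1+/+ and 557 in synj1+/- at the upper site, and 1082 and 682 at the lower site. FTL1 was thus 1.33-fold lower above and 1.59-fold lower below, and 5.55% and 4.30% of all genes at the respective site were as low or lower in log2 ratio.

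The heavy chain exceeded the light chain in every group, by 16.9-fold in synj1+/+ and 22.3-fold in synj1+/- above the lesion. Below the lesion it did so by 10.3-fold in synj1+/+ and 16.1-fold in synj1+/-. The ratio of heavy to light chain mRNA was higher in synj1+/- at both sites, while the heavy chain itself was nearly equal between the genotypes. The level of FTL1 is uncertain, because its mRNA shares stretches of at least 100 bases at 95% identity or more with 13 other annotated genes, none of them listed in the table. Of its 1340 exon bases, 355 also overlap Gm10252 on the other strand. The longest match was Ftl1-ps1 on chromosome 13, with 99.6% identity over 910 bases. FTH1 had no such match.

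Of the 3 uptake genes in the set, TFRC above the lesion was the one at least 1.2-fold apart. TRF (chr9:103204001-103230444, minus strand) encodes transferrin, the secreted carrier of ferric iron, which oligodendrocytes make in the cord. Its level was 1108 FPKM in synj1+/+ and 1066 in synj1+/- at the upper site, and 878 and 875 at the lower site. SLC11A2 (chr15:100387898-100425072, minus strand), the divalent metal transporter that moves iron into the cytosol, was 120.3 and 121 FPKM at the upper site and 135 and 136 at the lower one. The log2 ratios of these 2 genes stayed between -0.056 and 0.010. TFRC (chr16:32608920-32632794, plus strand), the transferrin receptor and the gene with 4 elements in its 3′ region, was 49.1 FPKM in synj1+/+ and 60.3 in synj1+/- above the lesion. Below the lesion it was 60.4 and 60.6 FPKM. The synj1+/+ group above the lesion was thus the low one and the other groups lay between 60.3 and 60.6 FPKM, with a log2 ratio of 0.30 above and 0.0053 below. For TRF, 2108 of 3320 exon bases also belong to an annotated gene on the same strand, Gm20425, and for SLC11A2, 402 of 6354 overlap Gm5475 on the other strand. TRF also shares at least 100 bases at 95% identity or more with 45 annotated genes, 13 of them listed. The library kit does not mark strand, and neither overlapping neighbour had a row in the table.

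Of the 2 export genes, CP was at least 1.2-fold lower in synj1+/- above the lesion, and both were below it. SLC40A1 (chr1:45908068-45926523, minus strand) encodes ferroportin, the iron exporter of the cell surface. Its level was 13.0 FPKM in synj1+/+ and 11.4 in synj1+/- at the upper site, and 22.7 and 14.5 at the lower site. The log2 ratio was -0.19 above, where 17.7% of all genes were as low or lower, and -0.65 below, where 4.53% were. CP (chr3:19957054-20009145, plus strand) encodes ceruloplasmin, a copper ferroxidase that astrocytes carry at their surface and that works beside ferroportin. Its level was 38.7 FPKM in synj1+/+ and 29.6 in synj1+/- at the upper site, and 94.0 and 53.5 at the lower site. CP was therefore 1.31-fold lower above and 1.76-fold lower below, with 6.28% and 3.08% of all genes as low or lower. The synj1+/+ group below the lesion held the highest level of both genes. Of the 9566 exon bases of CP, 108 overlap Hps3 on the other strand. The other ferroxidase of iron export, HEPH (hephaestin), was 9.12 and 7.74 FPKM above and 9.43 and 9.31 below.

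HMOX1 (chr8:75093621-75100589, plus strand) encodes the inducible heme oxygenase, which opens heme and frees its iron. Its level was 21.1 FPKM in synj1+/+ and 12.5 in synj1+/- at the upper site, and 25.9 and 18.6 at the lower site. Both synj1+/- values lay below both synj1+/+ values. HMOX1 was 1.69-fold lower above, where 219 of 13647 genes were as low or lower (1.60%), and 1.39-fold lower below, where 7.60% were. HMOX2, the constitutive heme oxygenase, was 264 FPKM in synj1+/+ and 269.8 in synj1+/- above the lesion and had no row below it.

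The 2 iron regulatory proteins differed from each other. ACO1 (chr4:40143081-40198338, plus strand) encodes iron regulatory protein 1, which works as the cytosolic aconitase while it holds an iron-sulfur cluster. Its level was 21.5 FPKM in synj1+/+ and 25.9 in synj1+/- at the upper site, and 5.95 and 15.0 at the lower site. ACO1 was 1.21-fold higher above and 2.52-fold higher below, and below the lesion 22 of 12338 genes (0.178%) had as high a log2 ratio. The low value was that of synj1+/+ below the lesion. IREB2 (chr9:54863789-54912530, plus strand) encodes iron regulatory protein 2, which is degraded when iron is plentiful. Its level was 40.7 and 41.3 FPKM above and 42.9 and 41.0 below, within a log2 ratio of -0.066 to 0.023 at the sites. IREB2 exceeded ACO1 by 1.90-fold in synj1+/+ and 1.60-fold in synj1+/- above the lesion, and by 7.21-fold and 2.73-fold below it.

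The change of a log2 ratio from above to below the lesion was 1.06 for ACO1, -0.45 for SLC40A1, -0.43 for CP, -0.29 for TFRC, 0.28 for HMOX1 and -0.25 for FTL1. For the other 4 genes it lay between -0.088 (IREB2) and 0.051 (TRF). These differences between sites could not be tested.

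Below the lesion compared with above, the sites had been reduced to a common read number separately, and the iron genes are therefore set beside all genes within each genotype. The median log2 ratio of all genes, below over above, was -0.00082 in synj1+/+ and 0.023 in synj1+/-. In synj1+/+, 5 of the 10 iron genes were at least 1.2-fold higher below (15.0% of all genes) and 2 lower (12.9% of all genes). In synj1+/-, 4 were higher (11.4% of all genes) and 2 lower (8.17% of all genes). CP was higher below by 2.43-fold in synj1+/+ and 1.81-fold in synj1+/-. SLC40A1 was higher below by 1.75-fold and 1.28-fold, and FTL1 by 1.46-fold and 1.22-fold. HMOX1 was 1.22-fold higher below in synj1+/+ and 1.49-fold in synj1+/-. ACO1 was lower below in both, by 3.61-fold in synj1+/+ and 1.73-fold in synj1+/-, and TRF by 1.26-fold and 1.22-fold. TFRC was 1.23-fold higher below in synj1+/+ and had a log2 ratio of 0.0066 in synj1+/-. At 1.5-fold, CP and SLC40A1 were higher below in synj1+/+ (4.10% of all genes) and ACO1 was lower (2.11%), and in synj1+/- CP was higher (2.20%) and ACO1 lower (1.27%). Export and light chain genes thus shared one direction between the sites, and ACO1 and TRF the opposite one, in both genotypes.

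**Figure D3:**
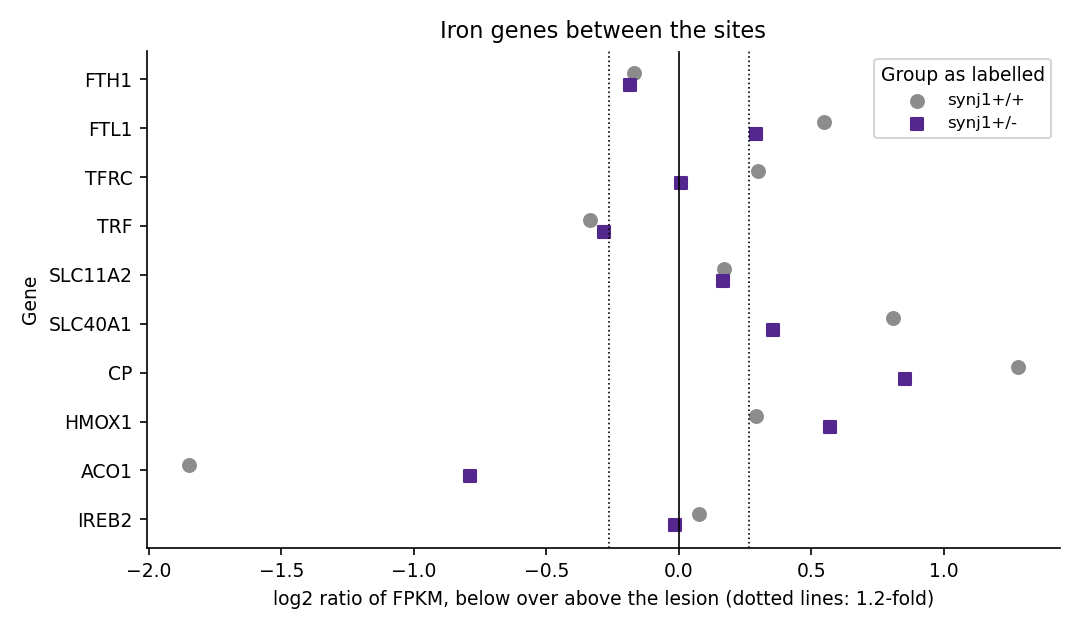
Log2 ratio of FPKM, below over above the lesion, of the 10 iron genes in the groups labelled synj1+/+ (grey circles) and synj1+/- (purple squares), with dotted lines at 1.2-fold. CP lies at 1.28 and 0.85 and ACO1 at -1.85 and -0.79, the outer ends of the set.

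A list of 61 further genes of iron and heme handling was read the same way. Above the lesion, 47 had a row, 3 were at least 1.2-fold higher in synj1+/- and 7 lower (6.38% and 14.9%, beside 8.02% and 12.0% of all genes), with a median log2 ratio of -0.0034. Below the lesion, 45 had a row, 3 were higher and 9 lower (6.67% and 20.0%, beside 14.0% and 16.4% of all genes), with a median of -0.021. The shares of lower genes lay near those of all genes, and the share of higher genes below the lesion was smaller than theirs. The single lists that follow are small, and each count is to be read beside these percentages. Members of the list that were not listed, such as HAMP (hepcidin), CD163 (the hemoglobin scavenger receptor) and HPX (hemopexin), were not analysed here.

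Among further genes of transferrin-bound and other iron uptake, 1 of 7 was higher and 2 lower above the lesion, and 2 of 8 were higher and 4 lower below it. SLC39A14, a zinc and iron importer and the most abundant of them, was 334 FPKM in synj1+/+ and 253.9 in synj1+/- at the upper site, and 315 and 236 at the lower site. STEAP3, an endosomal ferrireductase of the transferrin cycle, was 18.9 and 18.6 FPKM above and 37.9 and 20.5 below, 1.85-fold lower at the lower site. TFR2, the second transferrin receptor, was 13.7 and 15.9 FPKM above and 11.1 and 21.6 below, 1.95-fold higher there. LCN2 (lipocalin 2), which binds iron-carrying siderophores, was 5.49 and 6.59 FPKM above and 20.3 and 45.4 below, 2.23-fold higher there. These further uptake genes went both ways below the lesion.

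Storage partners were steady. None of the 3 listed above or the 2 listed below reached 1.2-fold, including NCOA4, the receptor that delivers ferritin for degradation, at 183 and 176 FPKM above and 196 and 191 below. PCBP2, an iron chaperone and the most abundant gene of the list, was 4884 FPKM in synj1+/+ and 5155 in synj1+/- above the lesion. Of the export and hepcidin control genes, 1 of 7 was lower above and 1 of 6 below, and it was HFE at both sites, with 27.8 and 23.2 FPKM above and 34.6 and 25.6 below. APP, the most abundant of them, was 3924 and 3915 FPKM above and 3323 and 3909 below.

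Of the heme transport and scavenging genes, 1 of 8 was lower above the lesion and 4 of 8 below it, beside 12.0% and 16.4% of all genes, and none was higher. The 1 above was ABCG2, a transporter that exports porphyrins and heme, at 141 FPKM in synj1+/+ and 60.4 in synj1+/-, 2.34-fold lower. Below the lesion ABCG2 was 85.0 and 68.1 FPKM. LRP1, the hemopexin receptor, was 119 and 108.1 FPKM above and 151 and 125 below. Of 9 heme synthesis genes, 1 was higher and 2 were lower above, and 1 was higher below. The higher one was ALAS2, the first enzyme of heme synthesis in red cells, at 2.25 and 10.8 FPKM above and 4.15 and 7.09 below. ALAS2 reached 10 FPKM in synj1+/- above the lesion alone, so it was named through the group where it was high. Hemoglobin genes were higher in that group too, with HBA-A1 at 103 and 468 FPKM above, and the part of blood in the ALAS2 values was not tested. PPOX, the most abundant of that list, was 166 and 179.9 FPKM above and 160 and 164 below. Of the mitochondrial iron and iron-sulfur cluster genes, 1 of 13 was higher and 1 lower above, and none of 12 passed below, where the median log2 ratio was 0.11. ISCU, the scaffold on which these clusters are built, was 523 and 552 FPKM above and 548 and 612 below.

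**Figure D4:**
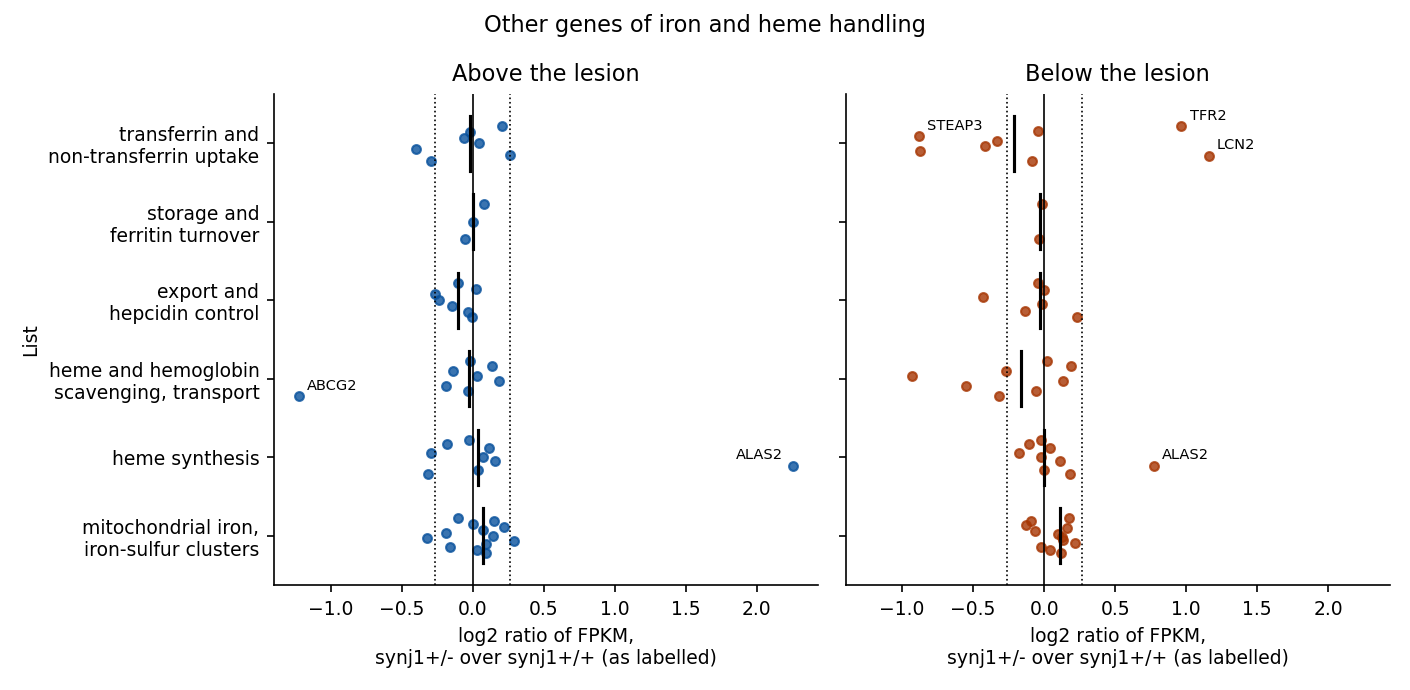
Log2 ratio of FPKM, synj1+/- over synj1+/+, of further iron and heme genes by list, above (left) and below (right) the lesion, with 1 point per gene, a black bar at each list's median and dotted lines at 1.2-fold. ABCG2 (-1.22) lies lowest and ALAS2 (2.26, named through its high group) highest above, and STEAP3 (-0.88), TFR2 (0.97) and LCN2 (1.16) lie far from 0 below.

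Markers of some cell types that handle iron differed between the genotype groups too, while none of the listed oligodendrocyte markers reached 1.2-fold. In bulk tissue, fewer cells of a type and less RNA per cell cannot be told apart. Of the microglia and macrophage markers, 6 of 11 were at least 1.2-fold lower in synj1+/- above the lesion and 10 of 10 below it, beside 12.0% and 16.4% of all genes, and none was higher. Their summed level was 1830 FPKM in synj1+/+ and 1417 in synj1+/- above, and 2844 and 1641 below. Above the lesion the most abundant was CTSS at 655 and 554 FPKM. Below it LYZ2 was 1100.2 and 464 FPKM and CTSS 971 and 632, so LYZ2 was the most abundant in synj1+/+ and CTSS in synj1+/-. LYZ2 was the lowest of the list in log2 ratio at both sites (-0.70 and -1.25). The highest were AIF1 above (17.2 and 17.7 FPKM) and CSF1R below (167 and 138 FPKM). FTL1, SLC40A1, CP and HMOX1 were lower in the same group as these markers, and the markers' part in those values was not tested.

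Of the fibroblast and meningeal markers, 5 of 6 were lower above (12.0% of all genes) and 6 of 6 below (16.4%). Their summed level was 41.5 FPKM in synj1+/+ and 33.0 in synj1+/- above, and 374 and 60.8 below, with DCN the most abundant below at 138 and 18.8 and PDGFRB above at 14.4 and 16.8. The lowest log2 ratios were those of COL3A1 above (4.26 and 0.728 FPKM) and LUM below (21.7 and 1.94 FPKM), and the highest that of PDGFRB at both sites (0.22 and -0.52). The sum was highest in the synj1+/+ group below the lesion. FTL1, SLC40A1, CP, HMOX1 and, by a small margin, IREB2 were also highest in that group, and ACO1 was lowest. The summed levels of the microglia and macrophage markers (2844 FPKM) and of the endothelial markers (293 FPKM) were highest there too. The part of these lists in those values was not tested. Of the 7 astrocyte markers, 4 were lower above and 2 below, beside the same shares of all genes, with a sum of 18007 and 14902 FPKM above and 16154 and 12661 below. GFAP, the most abundant of them, was 12974 and 10583 FPKM above and 11116 and 8484 below. The sums are mostly GFAP, and single markers differed, with log2 ratios from -0.29 (GFAP) to 0.063 (S100B) above and from -0.40 (AQP4) to 0.11 (SLC1A3) below. The part of this list in the lower CP values was not tested.

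All 4 hemoglobin genes listed were at least 1.2-fold higher in synj1+/- at both sites (8.02% of all genes above, 14.0% below), with a sum of 246 and 1122 FPKM above the lesion and 625 and 818 below. HBA-A1, the most abundant, was 103 and 468 FPKM above and 255 and 329 below. The log2 ratios ran from 2.13 (HBA-A2) to 2.33 (HBB-BT) above and from 0.27 (HBB-BS) to 0.47 (HBA-A2) below. HMOX1, which acts on heme, was lower in that group. The erythroid marker SLC4A1 had no row and was not analysed here. The part of blood in these values was not tested.

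Neuron markers were higher or similar, with none of 7 past 1.2-fold above the lesion and 2 of 6 higher below (14.0% of all genes), and sums of 9478 and 10760 FPKM above and 8074 and 10199 below. SNAP25, the most abundant, was 5238 and 6247 FPKM above and 5271 and 6928 below, and log2 ratios ran from -0.11 (TUBB3) to 0.26 (RBFOX3) above and from 0.11 (TUBB3) to 0.54 (SYT1) below. None of the 4 oligodendrocyte markers above or the 3 below reached 1.2-fold, and their sum was 11990 and 11500 FPKM above and 10970 and 10318 below, mostly MOBP at 10915 and 10551 above and 10365 and 9723 below. Their log2 ratios ran from -0.24 (CLDN11) to -0.049 (MOBP) above and from -0.13 (CLDN11) to 0.17 (MOG) below. MBP, MAG and CNP had no row and were not analysed here. Endothelial markers were mixed, with 1 of 6 higher above (8.02% of all genes) and 1 of 6 lower below (16.4%), and sums of 229 and 247 FPKM above and 293 and 277 below. SLCO1A4 was the most abundant at 70.3 and 75.6 FPKM above and 90.4 and 84.3 below, and log2 ratios ran from 0.016 (PECAM1) to 0.29 (TEK) above and from -0.66 (CDH5) to 0.15 (FLT1) below. Of the choroid plexus and ependymal markers, FOXJ1 had a row, at 45.9 and 41.0 FPKM above and 40.8 and 44.9 below. None of the 178 marker values was at 0, and GFAP, SNAP25 and MOBP, markers of glia and neurons as spinal cord should hold, were among the 13 most abundant genes in every group.

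**Figure D5:**
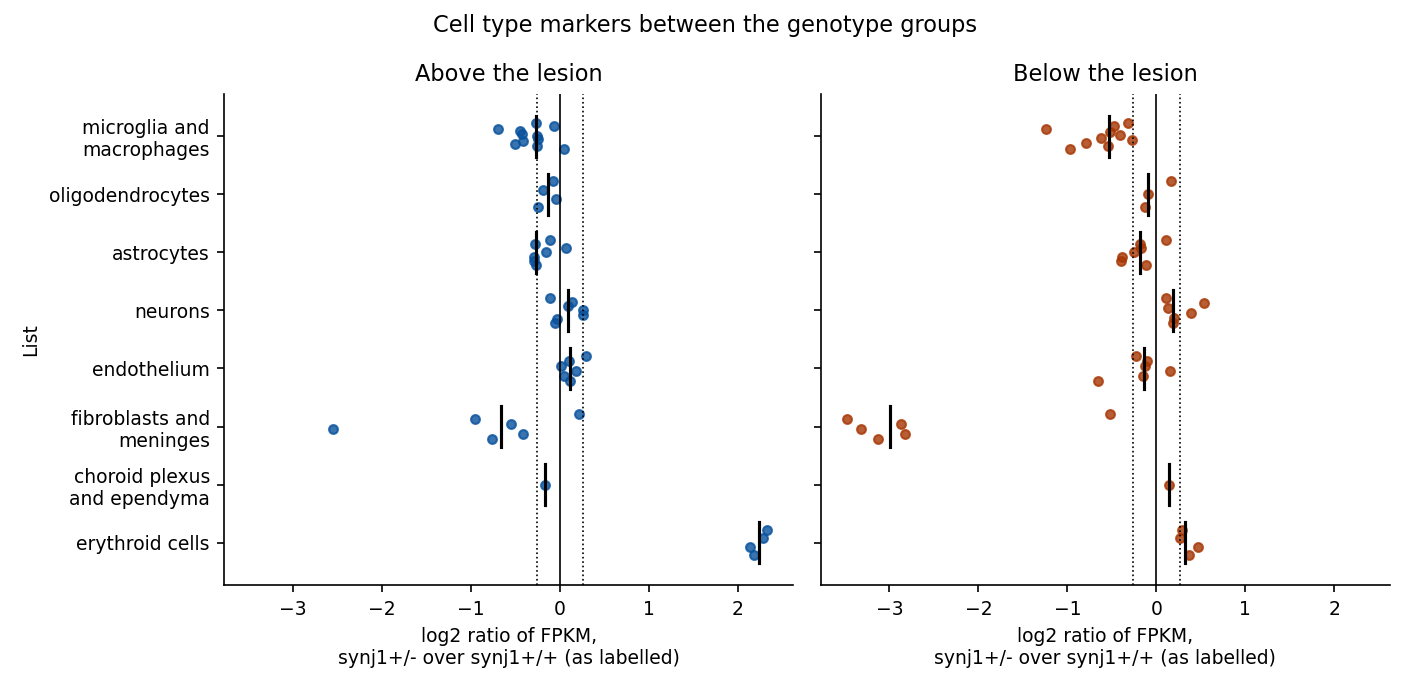
Log2 ratio of FPKM, synj1+/- over synj1+/+, of cell type markers by list, above (left) and below (right) the lesion, with 1 point per gene, a black bar at each list's median and dotted lines at 1.2-fold. Microglia and macrophage markers have medians of -0.27 and -0.53, fibroblast markers -0.66 and -3.00, and hemoglobin genes 2.24 and 0.33.

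The promoters were searched for TGANNNNGC, the antioxidant response element through which NRF2 acts on ferritin and heme oxygenase genes, on both strands of RefSeq windows from 250 bases before to 50 after each start (GRCm38.p6). Windows were at hand for 6 of the 10 genes, ACO1, CP, FTH1, FTL1, IREB2 and TFRC. The letters occurred in 1 of their 9 windows, that of ACO1, and in 41.3% of all 32851 windows. Sequence outside these short windows was not searched. Their absence from the FTH1 and FTL1 windows therefore does not show that these genes lack the element. Entries for HMOX1, SLC11A2, SLC40A1 and TRF were not used here.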

How the data were processed

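Libraries were made by the study from total RNA of spinal cord segments with a TruSeq v2 kit. Per the labels and the study's methods, reads were reduced at random to the smallest library of each site, aligned to GRCm38.p6 and summarized with STAR 2.5.4b and Cuffdiff 1.3.0 under upper quartile normalization; the annotation is not given in the sources used here. The authors deposited 1 FPKM value per gene and group, which stands for the 3 separate libraries of that group. The lowest deposited value is exactly 1 (19 values), so 1 was subtracted. The fold changes, p-values and q-values of the authors' own comparison, and a shorter list made from them, were not used. There were 0 columns of single samples, and the table holds no counts, so the reads behind each gene's value are unknown here and no test was run.

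Log2 ratios of FPKM were computed over the 25985 gene tests, and genes at least 1.2-fold apart were counted. In 6 rows the symbol occurs more than once at a site, none of them an iron gene. The 10 genes, the lists and the thresholds were chosen with earlier results of these data known. All 10 genes are named, with further iron genes at 10 FPKM or more in either group and at least 1.5-fold apart. Also named are the most abundant gene of each list by its synj1+/+ value and, for markers, the gene furthest apart in each direction. HEPH, HFE and CD68 were named after their values were seen. Positions, untranslated regions and shared sequence came from GENCODE M21 (GRCm38), with blastn 2.17.0. Python 3.11.15, numpy 2.4.6, pandas 2.3.3 and matplotlib 3.10.9 were used, and the ratios and counts were tested on simulated data. Alternatives were the values as deposited, centring on all genes, a minimum of 10 FPKM in both groups, and 1.5-fold.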

Additional observations from a re-analysis of the deposited data

How the results depend on the processing

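Every result rests on 1 deposited value per group, so leaving out each replicate could not be run. No paired analysis was possible because the table holds no columns of single samples. Of the genotype log2 ratios of the 10 genes, each kept its sign where it was at least 1.2-fold, and 1 moved by 0.1 or more: ACO1 below the lesion, from 1.33 to 1.204 with the values as deposited. With those values, 1 iron gene in place of 2 was higher above the lesion, since ACO1 fell short of 1.2-fold, and 4 of the 61 further genes in place of 7 were lower there. With a minimum of 10 FPKM in both groups, ACO1 dropped out below the lesion, leaving 0 higher, and of the further genes 1 was higher and 3 lower above. At 1.5-fold, 0 iron genes were higher and 1 lower above the lesion. Of the further genes, 1 was higher and 1 lower above, and 3 were lower below in place of 9. Centring on all genes moved no count past 1.5 times.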

Other observations

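SLC11A1, the metal transporter of phagocyte lysosomes, was read after its values were seen, because it belongs to iron recycling by macrophages. It was 41.2 FPKM in synj1+/+ and 30.5 in synj1+/- at the upper site, and 56.3 and 34.0 at the lower site, so it was 1.35-fold and 1.66-fold lower in the group labelled synj1+/-, where 4.97% and 3.59% of all genes were as low or lower in log2 ratio. The macrophage markers CD68 (1.42-fold and 1.73-fold) and LYZ2 (1.62-fold and 2.37-fold) were lower in the same group, and were among the markers furthest apart. Of the whole microglia and macrophage list, 6 of 11 were at least 1.2-fold lower above and 10 of 10 below. The shares of all genes were 12.0% and 16.4%. AIF1 went the other way above the lesion, at 17.2 FPKM in synj1+/+ and 17.7 in synj1+/-. The markers' part in the SLC11A1 values was not tested. SLC11A2, the related transporter of most cell types, differed by a log2 ratio of 0.010 above and 0.0064 below.

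The ratio of the uptake receptor TFRC to the exporter SLC40A1 was 3.78 in synj1+/+ and 5.31 in synj1+/- at the upper site, and 2.66 and 4.17 at the lower site. It was higher in synj1+/- at both sites, through TFRC and SLC40A1 above and through SLC40A1 below. Single libraries would be needed to say whether any of these differences exceeds the spread between mice.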
